A study of Glycine max with 12 samples.

Results

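The genes described here lie next to one another on soybean chromosome 5 and carry the identifiers from Glyma.05G230000 to Glyma.05G244000. The count table lists 140 identifiers in this range, and the 104 that had 10 or more counts in 3 or more libraries are its members, out of 32115 genes tested in the whole series. All 104 members passed the filter for testing. The range was chosen by measured values, changes seen in e15 in earlier results of these data, so its values in e15 against the nulls, and in e15 against e19, are given as a description and without p-values. The earlier label calls the whole range changed in e15. The counts below show 4 called members, all within a stretch of 19 members, and the range is therefore named here by its identifiers.

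Messenger RNA came from developing seed of soybean genotype 93Y21, collected 35 days after flowering. Event e15 gave 3 libraries, event e19 gave 3 and the nulls gave 6. Both events carry a construct driven by GmUBQ, a ubiquitin promoter, and are titled HOM, and the series title concerns a deletion variant of GmCGS2. The titles of all 3 groups, the nulls included, begin with UBQ, and those of the nulls hold the word NULL. They give the code 15A to e15, 19A to e19 and 33A to the nulls. Neither the relation of the nulls to the events, the number of plants behind a library nor the insertion sites are given in the sources used here. Replicates are numbered, with no word on whether each was a plant of its own, so the p-values reflect the spread of these libraries, which may be technical.

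A transgenic event is a line that descends from 1 insertion of a construct, and its seed also carries whatever chromosome segments its parent plant passed on. Genes that sit side by side on a chromosome are inherited together unless a crossover falls between them, and they are often transcribed independently of one another. At the seed filling stage soybean cotyledons make storage proteins and oil, and GmCGS2 encodes a cystathionine gamma-synthase, an enzyme at the first committed step of methionine synthesis. Identifiers number the genes along each chromosome, so their order was used as a map. The files do not pair identifiers with gene names, and 0 of the 104 members could be found in RefSeq's gene list for Glycine_max_v4.0, so no names, roles, coordinates or sequences are given. The labelled tissue could not be checked against named marker genes for the same reason.

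Total counts were 21988821 to 22849075 in e15, 19207771 to 21900491 in e19 and 21357512 to 23276877 in the nulls. Levels are in CPM, counts divided by a library size scaled with TMM, and a floor of 3 counts in a library corresponds to at most 0.142 CPM in e15, 0.158 CPM in e19 and 0.141 CPM in the nulls, covering counting error only. The labels place the 6 nulls in 1 group, but in earlier results of these data their expression fell into nulls 4 to 6 and nulls 1 to 3. These sets were thus drawn from the values themselves, with no label for them, so they are compared below as a description and without p-values. Together the members held 1859 ± 78 CPM in e15 and 1862 ± 44 CPM in e19, against 1874 ± 46 CPM in the nulls (SD, n = 3, 3 and 6), with libraries from 1806 to 1948 CPM in e15 and from 1832 to 1954 CPM in the nulls. The summed output of the range thus differed by less than the spread between libraries.

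Most members differed little between e15 and the nulls. A gene was called at a false discovery rate of 0.05 in edgeR's quasi-likelihood test over all genes. In e15, 2 members were called higher and 2 lower, which is 4 of 104 (3.85%), beside 0.754% of all genes tested (0.258% higher and 0.495% lower). Because this contrast chose the range, nothing is read from that excess. The median log2 change of the 104 members was 0.02 in e15, beside 0.00 over all genes, and 96 of the 104 lay within 0.5 on the log2 scale (92.3%, beside 94.2% of all genes). In bulk libraries of seed, a change in the share of a cell type and a change in RNA per cell cannot be told apart.

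**Figure D1:**
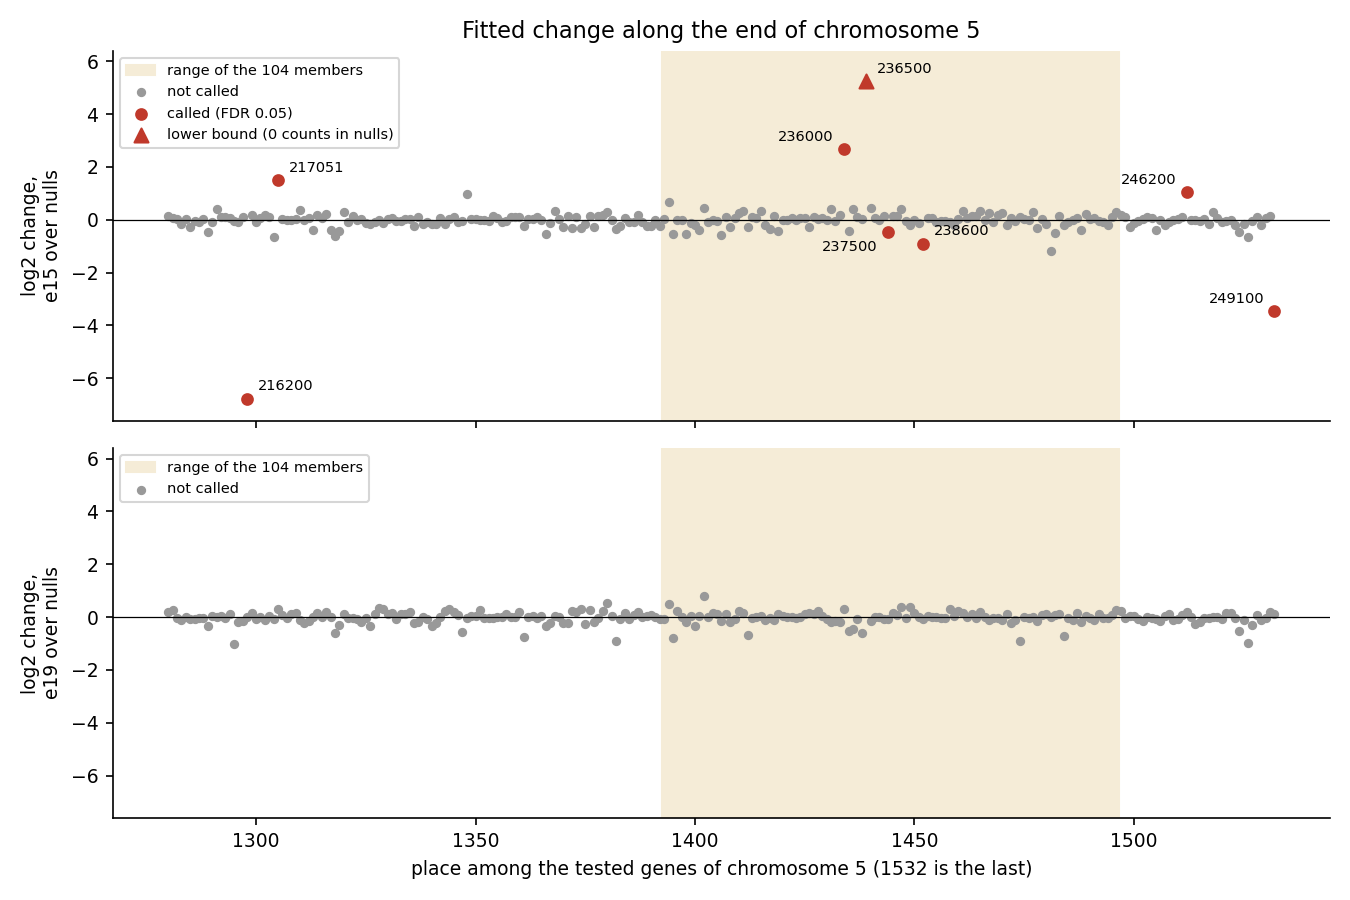
Fitted log2 change of each tested gene in e15 over nulls (top) and e19 over nulls (bottom) against its place among the tested genes of chromosome 5, with the range of the 104 members shaded. Called genes are red and labelled by the number after the G, the triangle marks a lower bound against the floor of the nulls, and the fitted value of Glyma.05G216200 (1 count in e15) depends on the prior count. The map covers only the end of the chromosome, from shortly before Glyma.05G216200 on. In that stretch the 4 called members stand in the middle of the range and 4 more genes called in e15 lie outside it, while no gene shown is called in e19, where Glyma.05G236500 is not drawn because it had 0 counts in e19 and the nulls.

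Glyma.05G236500 was present in e15 alone. It had 112, 118 and 119 counts in the 3 e15 libraries, and 0 counts in every e19 library and in every null. Its level was 5.16, 5.59 and 5.17 CPM in e15, against at most 0.158 CPM in e19 and at most 0.141 CPM in the nulls, the limits that 0 counts allow. The e15 mean of 5.31 ± 0.25 CPM (SD, n = 3) was at least 33.6-fold above the e19 floor and at least 37.7-fold above the null floor, both taken per library. This gene became a member through the e15 libraries alone, since those are the 3 libraries in which it reached 10 counts.

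It was the only member with at least 10 counts in each e15 library and at most 3 in each of the other 9, a pattern that 0.0218% of all genes tested showed (7 genes). The reverse, absence in e15 alone, was found for 0 members, beside 0.0156% of all genes (5 genes). Presence or absence in e19 alone was found for 0 members and for 0 of all genes tested (0%). The counts of members (1, 0, 0 and 0) were the same at limits of 20 and 3, 10 and 1, and 5 and 3 counts. The 36 identifiers of the range that are no members held no further such gene: 15 of them had no counts, and no library held more than 9 counts of the other 21 in e15, 8 among e19 libraries or 12 among nulls.

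Glyma.05G236000, 5 tested genes before it on the chromosome, was the second member called higher in e15. It had 19.2, 21.8 and 18.6 CPM in e15 and 4.65, 3.10 and 3.83 CPM in e19, while the 6 nulls ran from 2.61 to 3.70 CPM with a median of 3.08 CPM. All e15 libraries stood far above all others, and the ranges of e19 and the nulls overlapped. The e15 mean of 19.8 ± 1.69 CPM was 6.34 times the null mean of 3.13 ± 0.46 CPM (SD, n = 3 and 6) and 5.14 times the e19 mean of 3.86 ± 0.771 CPM. The null sets were close to each other, with 3.42 ± 0.406 CPM over nulls 4 to 6, against 2.84 ± 0.326 CPM over nulls 1 to 3. Unlike Glyma.05G236500, this gene was thus expressed in all 12 libraries.

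The members called lower in e15 changed less. Glyma.05G238600 had 6.12, 5.97 and 4.78 CPM in e15 and 8.41, 11 and 10.4 CPM in e19, and the nulls ran from 9.13 to 11.5 CPM with a median of 10.7 CPM. The highest e15 library lay below every other library. Its e15 mean was 5.63 ± 0.738 CPM, against 10.6 ± 1.00 CPM in the nulls, a log2 change of -0.91 ± 0.11 (SE).

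Glyma.05G237500 had 6.77, 7.73 and 6.82 CPM in e15 and 9.78, 8.68 and 9.60 CPM in e19, and the nulls ran from 8.67 to 11.9 CPM with a median of 9.69 CPM. The e15 libraries were again the lowest of all 12, but the gap to the next library was small. Its e15 mean was 7.11 ± 0.54 CPM, against 9.77 ± 1.16 CPM in the nulls, a log2 change of -0.46 ± 0.10 (SE). This call was lost when any 1 of the 3 e15 libraries or null 3, 4 or 6 was left out, while its log2 change stayed between -0.52 and -0.40. The other 3 called members kept their calls under every alternative tried for them.

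**Figure D2:**
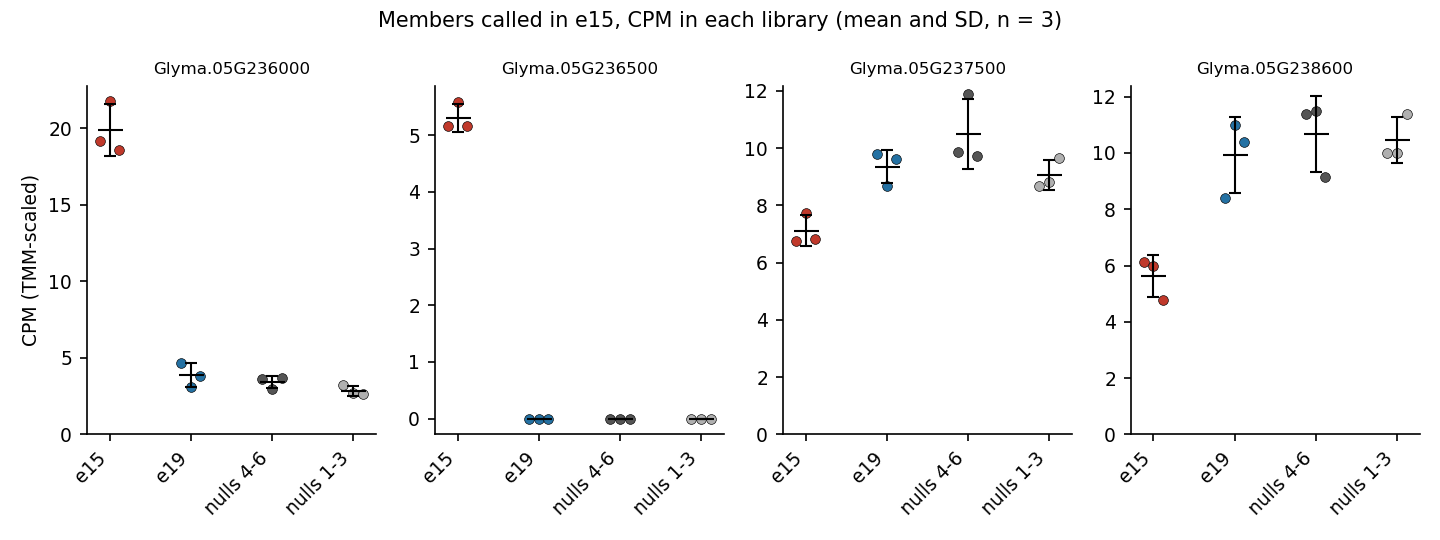
CPM of the 4 members called in e15, by library, for e15, e19, nulls 4-6 and nulls 1-3 (points), with the mean and SD of each set of 3 libraries. The e15 libraries lie above all others for Glyma.05G236000 and Glyma.05G236500 and below all others for Glyma.05G237500 and Glyma.05G238600.

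The deposited values of these genes are estimates that divide some reads among genes, so genes with near-identical copies are uncertain. Fractions of a read were present in 10 libraries for Glyma.05G236000, in 12 for Glyma.05G237500 and Glyma.05G238600, and in 2 for Glyma.05G236500. Such fractions occurred in 1 or more libraries for 80.8% of the members, beside 79.9% of all genes tested. Which genes shared the reads was not tested, and overlapping or antisense genes cannot be told apart here because the sources do not say whether counting used strand.

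Some members without a call also had e15 libraries apart from the nulls. The e15 libraries lay wholly outside the range of the 6 nulls for 15 members, 8 higher and 7 lower (14.4%, beside 5.16% of all genes, 2.33% higher and 2.83% lower), and outside all 9 other libraries for 12 members, 6 higher and 6 lower (beside 2.34% of all genes, 0.934% higher and 1.41% lower). Besides the 4 called genes, the 12 held Glyma.05G236233, Glyma.05G236600, Glyma.05G240600 and Glyma.05G240900 on the higher side, and Glyma.05G230700, Glyma.05G238500, Glyma.05G242000 and Glyma.05G243200 on the lower side. None of these 8 passed the test, and they are named after their values were seen. They are spread over the range, and since e15 values chose it, nothing is read from the shares. Of them, Glyma.05G230700 was also apart between the null sets, with 12.4 ± 0.816 CPM in e15, 15.3 ± 1.71 CPM over nulls 4 to 6 and 20.4 ± 1.97 CPM over nulls 1 to 3 (SD, n = 3 each). The null sets did not overlap for Glyma.05G236600 and Glyma.05G240600 either. Glyma.05G236600 had 4.1, 3.18 and 3.26 CPM in e15, little above the 3.1, 3.1 and 2.81 CPM of nulls 4 to 6. Its nulls 1 to 3 had 2.17, 2.05 and 2.45 CPM. Glyma.05G240600 had 4.49, 4.5 and 4.68 CPM in nulls 4 to 6, against 3.88, 4.46 and 4.36 CPM in nulls 1 to 3.

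Their differences were small beside those of the first pair of genes. Glyma.05G236233 had 2.39, 2.37 and 2.35 CPM in e15, 1.03, 0.947 and 1.99 CPM in e19, and 1.44 to 2.14 CPM in the nulls (median 1.79 CPM). Glyma.05G240900 had 15.5, 17 and 16.9 CPM in e15, 12.4, 12.2 and 13.6 CPM in e19, and 13 to 14.5 CPM in the nulls (median 14 CPM). Glyma.05G238500 had 28.4, 28.6 and 28.6 CPM in e15, 30.9, 28.7 and 32.5 CPM in e19, and 29.2 to 32.1 CPM in the nulls (median 31 CPM). The log2 changes in e15 against the nulls were 0.39, 0.25 and -0.11 in that order. The lowest fitted log2 difference of any member from the nulls in e15, -1.19, belonged to the faint Glyma.05G242000, with 0.230, 0.142 and 0.174 CPM in e15, close to the floor, and a median of 0.444 CPM in the nulls.

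Cut into 8 windows of 13 consecutive members, the window from Glyma.05G235800 to Glyma.05G237500 held 3 of the 4 calls and 5 members with e15 outside the nulls, the 3 called ones included. The next, up to Glyma.05G239100, held 1 call and 3 such members, the called one included. The other 6 windows held no call and 0 to 2 such members each, so without the called genes these 2 windows held as many as the highest of the others. Median log2 changes of the windows were between -0.06 and 0.13 in e15 and between -0.07 and 0.05 in e19.

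**Figure D3:**
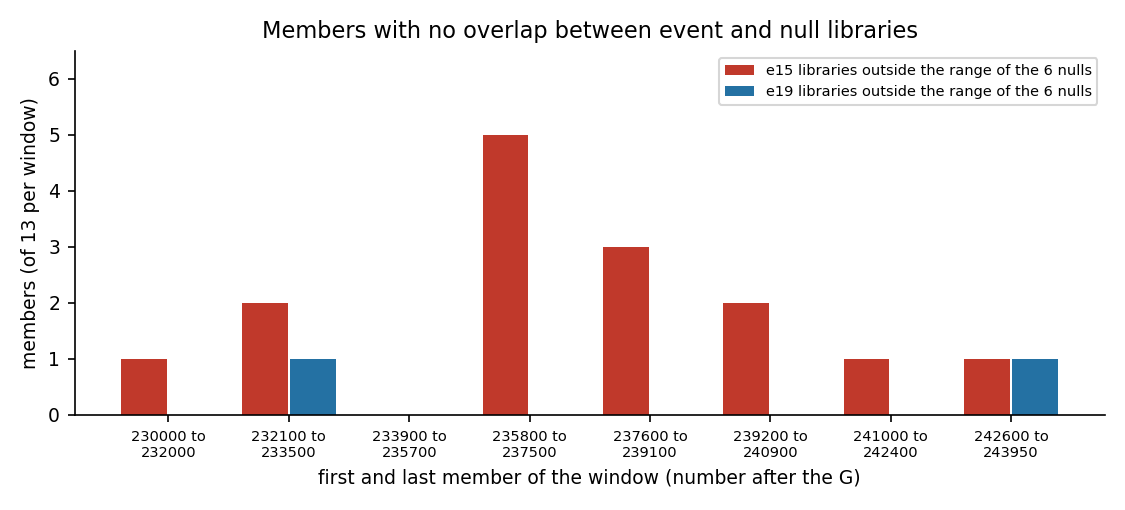
Number of members, of 13 in each window along the range, whose 3 e15 libraries (red) or 3 e19 libraries (blue) all lie above or all lie below the 6 nulls. The fourth and the next window hold 5 and 3 members for e15, called genes included, and e19 has 1 member in each of 2 windows.

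Event e19 showed no called member. Its contrast uses the same nulls as that of e15, and the members were chosen for e15, so its values do not test a difference between the events. In edgeR's test 0 of 104 members differed between e19 and the nulls, beside 0.0747% of all genes (24 genes). In DESeq2 0 members did, beside 0.109% of all genes (35 genes). At an unadjusted p under 0.05, 11 members differed (10.6%, beside 7.04% of all genes). The median log2 change of the members was -0.01 in e19, as over all genes, and the changes ran from -0.91 to 0.78. Of the members, 97 lay within 0.5 on the log2 scale (93.3%, beside 95.2%).

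The genes called in e15 were near the null level in e19. For Glyma.05G236000 the log2 change in e19 was 0.31 ± 0.14 (SE, 95% interval 0.02 to 0.61 without adjustment, adjusted p = 0.698, edgeR). For Glyma.05G237500 it was -0.06 ± 0.10 (interval -0.27 to 0.15, adjusted p = 0.921), and for Glyma.05G238600 -0.09 ± 0.11 (interval -0.31 to 0.13, adjusted p = 0.883). The smallest p in e19 belonged to Glyma.05G241300, at 0.538, 0.473 and 1.12 CPM in e19 and 0.985 to 1.83 CPM in the nulls (adjusted p = 0.575), where the groups overlapped.

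The e19 libraries lay outside the range of the nulls for 2 members, both lower (1.92%, beside 3.15% of all genes, 1.58% lower). Glyma.05G243400 had 87.9, 88.2 and 86.3 CPM in e19, against 88.5 to 92.5 CPM in the nulls (median 90.9 CPM). Glyma.05G232900 had 0.538, 0.736 and 0.664 CPM in e19, against 0.750 to 1.38 CPM in the nulls. Neither passed the test, and neither lies between Glyma.05G236000 and Glyma.05G238600.

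Set directly against e19, e15 was higher for Glyma.05G236000 and Glyma.05G236500 and lower for Glyma.05G238600 (3 of 104, or 2.88%, beside 0.299% of all genes, 0.109% higher and 0.190% lower). On the log2 scale e15 minus e19 came to 2.35 ± 0.14 for Glyma.05G236000 and -0.82 ± 0.13 for Glyma.05G238600 (SE). For Glyma.05G237500 it was -0.40 ± 0.12 and did not pass the test. The first and the last called member were the same in this comparison as against the nulls.

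The nulls also varied among themselves over the range, about as often as over all genes. Between nulls 4 to 6 and nulls 1 to 3, 10 members passed the threshold used for the events (9.62%, beside 9.59% of all genes), 5 higher and 5 lower (4.51% and 5.08% of all genes), and 0 by 2-fold or more (1.87% of all genes). The libraries of the sets did not overlap for 28 members (26.9%, beside 29.6%). Among the 10 members past the threshold, those lowest in nulls 4 to 6 relative to nulls 1 to 3 were Glyma.05G236400, with a mean of 3.05 ± 0.287 CPM over nulls 4 to 6, against 5.33 ± 0.783 CPM over nulls 1 to 3 (log2 difference -0.80), and Glyma.05G235700, at 1.90 ± 0.315 and 3.06 ± 0.769 CPM in the same order of sets (-0.69). Glyma.05G240300 was higher, with 3.71 ± 0.244 CPM over nulls 4 to 6, against 2.41 ± 0.0663 CPM over nulls 1 to 3 (0.62), as was Glyma.05G237900, at 20.7 ± 0.733 and 13.7 ± 0.663 CPM in the same order (0.59; SD, n = 3 in each set). The other 6, Glyma.05G230700 among them, had log2 differences of -0.66 to 0.34. The count was 4 to 11 with 1 library left out (5.22% to 11.1% of all genes). It was lowest, 4, without null 2, and it was 5 without null 1 or null 4.

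None of the 4 members called in e15 was among these 10. On the log2 scale nulls 4 to 6 minus nulls 1 to 3 came to 0.27 for Glyma.05G236000, 0.21 for Glyma.05G237500 and 0.03 for Glyma.05G238600, and Glyma.05G236500 had 0 counts in both sets. The null sets did not overlap for Glyma.05G237500, with 9.86, 11.9 and 9.71 CPM in nulls 4 to 6, against 8.67, 8.83 and 9.66 CPM in nulls 1 to 3. Its e15 libraries lay below both sets. Some of the 10 members lie among the genes called in e15. Glyma.05G236400 is the tested gene next to Glyma.05G236500, and it had 4.05, 4.74 and 4.13 CPM in e15, between the null sets, and 2.25, 3.21 and 2.96 CPM in e19, near nulls 4 to 6. Glyma.05G237900 had 22, 21.7 and 24.2 CPM in e15 and 27.7, 19.7 and 19.7 CPM in e19. Nulls 4 to 6 had 21.5, 20 and 20.6 CPM, below every e15 library and between the e19 libraries.

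**Figure D4:**
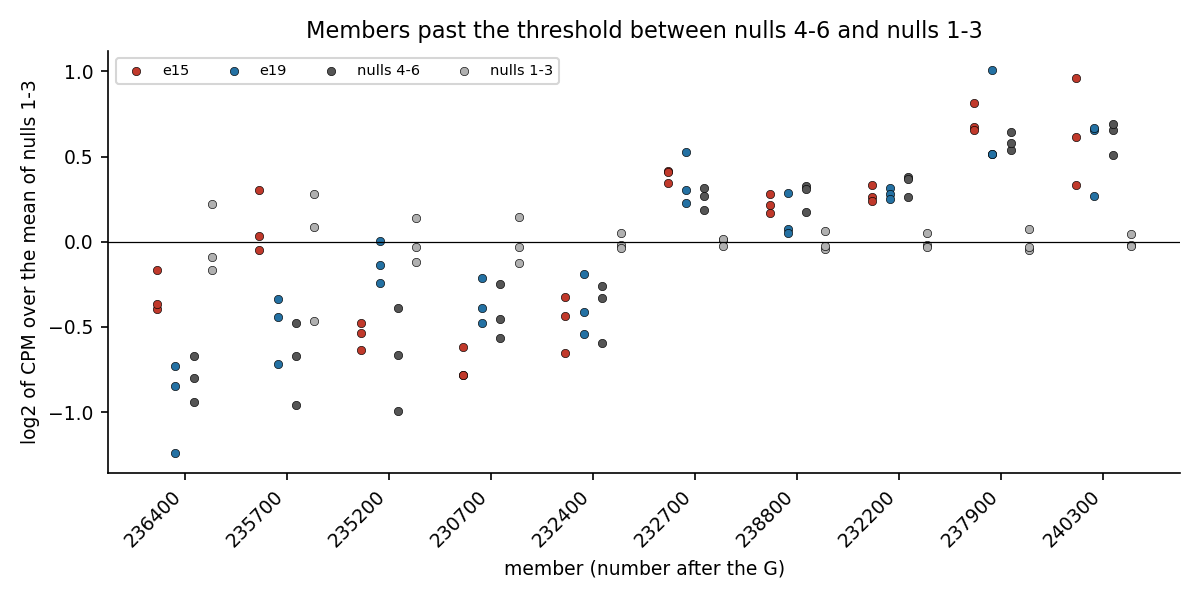
Log2 of CPM over the mean of nulls 1-3 in each library, for the 10 members past the threshold between nulls 4-6 and nulls 1-3, sets drawn from the expression values, ordered by that difference. The 3 libraries of nulls 4-6 lie on one side of nulls 1-3, and the e15 libraries of Glyma.05G236400 lie between the sets.

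Inside the range the called genes end at Glyma.05G236000 on one side and Glyma.05G238600 on the other. These are members 42 and 60 of the 104, so 41 members before and 44 after were not called, and at most 7 uncalled members separate 2 calls. At false discovery rates of 0.01 and 0.10, and with library totals alone, the ends stayed where they were. Against nulls 4 to 6 alone the first call was Glyma.05G235700, 3 members earlier. Against nulls 1 to 3 alone calls ran from Glyma.05G230700 to Glyma.05G243200, 91 members, in a comparison that called 7.38% of all genes.

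Some genes of chromosome 5 outside the range were also called in e15. On the whole chromosome 11 of 1532 tested genes were called (0.718%, beside 0.754% of all genes). Of these, 4 lie in the range and 7 among the other 1428 genes (0.490%). Because e15 values chose the range, nothing is read from the shares inside and outside it. Before Glyma.05G236000, 128 tested genes in a row were not called, back to Glyma.05G217051. After Glyma.05G238600, 59 were not called before Glyma.05G246200, and the last called gene, Glyma.05G249100, is the last tested gene of the chromosome. Behind the range 2 of 36 tested genes were called (5.56%, beside 0.754% of all genes).

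The nearest calls before the range went in opposite directions. Glyma.05G216200 had 1, 0 and 0 counts in e15, 56, 38 and 41 counts in e19 and 39 to 81 counts in the nulls. The nulls were 148 times e15, with a counting interval of 26.8 to 5960. Glyma.05G217051 had 2.03, 2.32 and 1.56 CPM in e15, 0.587, 0.789 and 1.17 CPM in e19, and 0.401 to 0.938 CPM in the nulls (median 0.725 CPM). The first was thus absent in e15 alone by the limits used above, and the second was 2.82 times the null level in e15.

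Behind the range the calls also went in opposite directions. Glyma.05G246200 had 2.58, 3.27 and 3.17 CPM in e15, 2.00, 1.32 and 1.63 CPM in e19, and 1.20 to 1.88 CPM in the nulls (median 1.41 CPM). Glyma.05G249100 had 2 counts over the 3 e15 libraries, 25 over the 3 e19 libraries and 55 over the 6 nulls. The nulls were 12.6 times e15, with a counting interval of 3.44 to 110. That call was lost without any 1 of the e15 libraries and in DESeq2. The third call before the range, Glyma.05G076800, is separated from Glyma.05G216200 by 817 tested genes without a call. It had 12.3, 7.35 and 10.9 CPM in e15, against 4.17 ± 0.617 CPM in e19 and 6.32 ± 0.923 CPM in the nulls, and its call was lost in 9 of 21 alternatives.

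**Figure D5:**
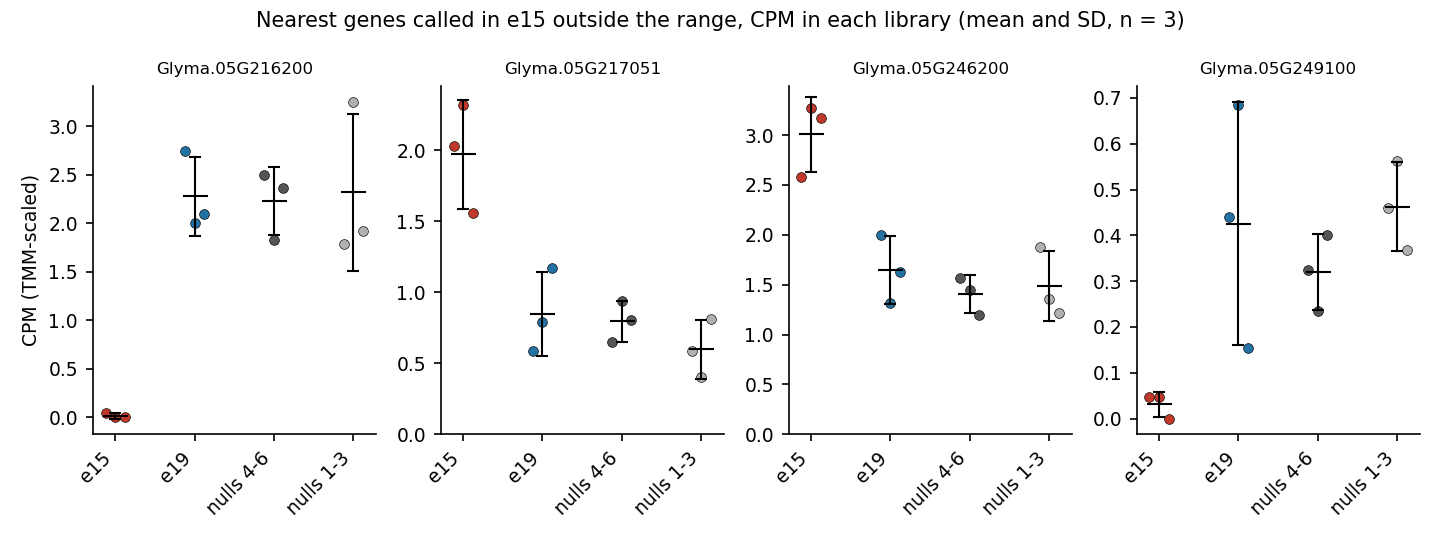
CPM by library of the nearest genes called in e15 outside the range, 2 before it (Glyma.05G216200 and Glyma.05G217051) and 2 after it (Glyma.05G246200 and Glyma.05G249100), with the mean and SD of each set of 3 libraries. Glyma.05G216200 and Glyma.05G249100 are near 0 in e15, and the other pair is highest there.

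The members ranged from faint to abundant. Their median level was 6.29 CPM, beside 5.84 CPM over all genes tested, with 2 members over 100 CPM, 81 from 1 to 100 CPM and 21 under 1 CPM. Of all 32115 genes tested, 710, 26919 and 4486 lay in these bands, so faint genes were a larger share of the members. The most abundant, Glyma.05G243800, had 306, 347 and 313 CPM in e15, 362, 384 and 330 CPM in e19, and 343 to 402 CPM in the nulls (median 351 CPM). Its ranges in e15 and the nulls overlapped, and the fitted log2 difference from the nulls was -0.18 ± 0.07 for e15 and -0.02 ± 0.07 for e19 (SE), without a call. The next in abundance, Glyma.05G238000, Glyma.05G239000, Glyma.05G243400 and Glyma.05G234800, averaged 114, 99.3, 90.2 and 74.9 CPM over all libraries. Their log2 changes were between -0.04 and 0.02 in e15 and were all -0.05 in e19. None was called in either event, although Glyma.05G238000 lies between the called genes.

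The genes next to the limits of the range were not called in either event. Before the range Glyma.05G229900 averaged 3.17 CPM in e15, 3.57 CPM in e19 and 3.74 CPM in the nulls, and the first member, Glyma.05G230000, 3.37, 3.14 and 3.26 CPM in the same order. The last member, Glyma.05G243950, averaged 1.06, 1.04 and 0.877 CPM in that order, and the first identifier behind it, Glyma.05G244100, 607, 625 and 537 CPM. The null sets did not overlap for Glyma.05G244100 in counts before scaling. Nulls 1 to 3 had 11407, 12056 and 11877 counts, and nulls 4 to 6 had 12995, 12170 and 13620. By the count limit, Glyma.05G238200 was a member with 10 counts in 4 libraries and 4 to 13 counts in all, and Glyma.05G234600 was none, with 10 counts in 2 libraries and 3 to 12 counts. Of the 104 members, 87 reached 10 counts in every library.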

How the data were processed

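The authors deposited 1 table of estimated counts of reads per gene, a column for each of 12 libraries, and 0 columns were left out here. Per the labels' protocols, libraries were made from polyadenylated RNA with a stranded kit and read as single reads of 100 bp. Aligner, counting program and strand setting were not given in the sources used here. Of 52872 genes, 28752 held a fraction of a read in 1 or more libraries (tolerance 0.0005), and values were rounded to whole numbers before testing. Genes were filtered with filterByExpr on the groups, scaled with TMM and tested in edgeR 4.0.16 under R 4.3.3 by its quasi-likelihood test, with robust set and 3 group means (e15, e19, nulls) fitted to the 12 libraries together. The null sets, which come from expression and not from labels, were compared in the same way with 4 groups, as a description. P-values were adjusted by Benjamini-Hochberg over 32115 genes. The script was tested on simulated data. DESeq2 1.42.0 was an alternative. Floors use 3 counts, and counting intervals are exact 95% binomial intervals. The SE of a log2 change is its absolute value divided by the square root of the F statistic of its test. Intervals of e19 changes use this SE with the same t quantile for all genes, so they are approximate.

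The members, lists and tests were chosen with earlier results of these data known. Members were named if present or absent in 1 event, called, among the 5 most abundant or at an edge of the rule, as were the nearest calls outside, and other names were chosen after values were seen. Lists by gene product and marker genes were not analysed here.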

Additional observations from a re-analysis of the deposited data

Results flagged for a closer look

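Of the 104 members and the 5 nearest genes called in e15 outside the range, 3 members and 2 outside genes differed between e15 and e19 in edgeR, where 96 genes did over the whole table and 4 on the rest of chromosome 5. The members were chosen for their values in e15. On the log2 scale e15 minus e19 came to 9.87 for Glyma.05G236500, a fitted value that depends on the prior count and is no bound, 2.35 for Glyma.05G236000 and -0.82 for Glyma.05G238600. Outside the range it was 1.29 for Glyma.05G076800 and -6.78 for Glyma.05G216200, the last again with 1 count in e15. Among the nulls, replicate 5 stood apart for Glyma.05G237500, at 11.9 CPM, where the others were at most 9.86 CPM. That was 1 of 23 sets of null values examined, and chance flags about 1 in 20.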

How the results depend on the processing

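The count of 4 members called in e15 was 3 to 5 with 1 library left out (0.252% to 0.837% of all genes). It was 7 with nulls as 2 subgroups, 13 against nulls 1 to 3 alone and 11 with the replicate block (2.77%, 7.38% and 7.34%). The 0 members called in e19 were 1, 5 and 4 in these fits (0.461%, 6.24% and 6.08% of all genes) and 0 with any library left out. The block uses libraries 1 to 3 of each group, so it changes the nulls as well. Same-numbered libraries did not deviate together more than differently numbered ones (correlations of -0.046 to 0.071, and of -0.1 to 0.081). Such deviations from means of 3 libraries cannot show whether samples of 1 number were grown or prepared together. The cause of the changed counts of called members was not tested. The stretch from first to last e15 call was 19 members, 22 against nulls 4 to 6 alone and 91 against nulls 1 to 3 alone. Fits for which the stretch was not worked out include DESeq2, nulls as 2 subgroups, the replicate block and those with 1 library left out. The 3 members called between the events stayed at 3 or 4 throughout, while the share called over all genes ran from 0.206% to 1.06%. Members past the threshold between the null sets, which were drawn from expression, numbered 10 (9.59% of all genes). They numbered 25 with library totals alone (23.4%) and 4 to 11 with 1 library left out (5.22% to 11.1%). Median log2 changes of the members with library totals alone were -0.07 in e15 (all genes -0.10) and -0.13 in e19 (all genes -0.13). In e19 the median was -0.02 against nulls 1 to 3 alone and with the block, and -0.02 to 0.00 with 1 library left out. The e15 call of Glyma.05G237500 was also lost with the block (log2 change -0.35). In e19 the log2 change of Glyma.05G237500 was 0.05 against nulls 1 to 3 alone and with the block, and -0.09 to 0.00 with 1 library left out (0.00 without null 5). That of Glyma.05G238600 was -0.17 to 0.02 (0.02 without e19 replicate 1). Members whose e15 libraries lay outside the nulls numbered 15 (5.16% of all genes), and 31 against nulls 1 to 3 alone (26.9% of all genes). For e19 these were 2 (3.15%), and 6 with library totals (4.43%), 8 against nulls 4 to 6 (10.2%) and 21 against nulls 1 to 3 (24.7%). These counts were added after the data were seen. Depth limits genes under about 0.15 CPM.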
